A study of Rattus norvegicus with 9 samples.

Results

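The kainate receptor family of ionotropic glutamate receptors and its Neto partners were described in rat thalamus under a solid and a powdered diet. The genes were the 5 pore-forming subunits Grik1 to Grik5 and the auxiliary subunits Neto1 and Neto2, taken by symbol, 7 of the 14217 genes named on the arrays. Each probe set annotated to exactly 1 of these symbols was kept, which gave 8 of the 31042 rat probe sets. Neto2 had 2 and each other gene had 1, and no probe set with several symbols held any of them.

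Thalamus RNA came from male Wistar rats, 3 weeks old at the start and 5 weeks old per the sample labels. All rats first ate powdered feed for 2 preparatory days, and weight-matched groups were then given solid feed (chow, 4 samples) or powdered feed (powder, 5 samples) for 8 days. The start age and these days of feeding do not obviously add up to the labelled age of 5 weeks. No gene was altered and no drug was given in either group, and the diets differed in form by label. The labels speak of 10 rats, 9 samples were analysed here, and no label ties a sample to an animal or says whether animals were pooled, so any p-value reflects variation among these samples, some of it possibly technical. One hybridisation to a 1-colour oligonucleotide array was made per sample, and the table gives 1 log2 value per probe set and array. The thalamus is made of several nuclei, and the labels do not say how it was dissected.

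Kainate receptors are tetrameric cation channels opened by glutamate. GRIK1, GRIK2 and GRIK3 can form channels by themselves, whereas GRIK4 and GRIK5 bind agonist with high affinity and need 1 of the former as partner. NETO1 and NETO2 are transmembrane proteins that associate with the channel and slow its deactivation and desensitisation. In the brain kainate receptors act at postsynaptic sites and also at presynaptic sites, where they modulate glutamate and GABA release.

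The largest differences of the family were in Grik2 and Neto2, and they ran in opposite directions. Grik2 was 0.812-fold as high under chow as under powder, and Neto2 was 1.26-fold as high by 1 of its probe sets and 1.10-fold by the other. For each of these 3 probe sets every chow array lay on the same side of every powder array. That also held for 50.0% of the 4849 rat probe sets spanning at least 0.01 log2 units over the arrays. Grik3 also passed the test, by 0.000329 log2 units, and Grik1, Grik4, Grik5 and Neto1 did not. The start regions of Grik2 and Neto2 are shown here because these genes carry the differences of measurable size. They are 300-base windows from RefSeq (assembly GRCr8), 250 bases before to 50 after the annotated start, read 5′ to 3′ on the gene's strand. Capitals mark matches on either strand to the cyclic AMP response element core CGTCA or to the GC box GGGCGG, a binding motif of Sp family factors.
Grik2, chr20:54415234-54415533, minus strand: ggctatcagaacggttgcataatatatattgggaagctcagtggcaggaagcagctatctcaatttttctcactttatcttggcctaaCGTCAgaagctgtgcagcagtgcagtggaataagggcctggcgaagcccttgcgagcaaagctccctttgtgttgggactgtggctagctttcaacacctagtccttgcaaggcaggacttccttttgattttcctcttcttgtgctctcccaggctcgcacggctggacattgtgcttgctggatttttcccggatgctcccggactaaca
Neto2, chr19:37517305-37517604, plus strand: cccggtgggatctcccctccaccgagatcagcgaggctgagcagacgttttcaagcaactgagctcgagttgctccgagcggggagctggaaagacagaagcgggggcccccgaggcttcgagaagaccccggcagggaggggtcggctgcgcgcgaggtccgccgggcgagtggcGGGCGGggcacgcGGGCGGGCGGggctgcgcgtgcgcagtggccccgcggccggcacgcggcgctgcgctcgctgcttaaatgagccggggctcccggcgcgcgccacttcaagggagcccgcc
The Grik2 window held 1 CGTCA match and 0 GC box matches, was 50.3% G or C and had 8 CpG dinucleotides. The Neto2 window held 3 GC box matches, the last 2 of them overlapping, and 0 CGTCA matches, was 74.0% G or C and had 41 CpG dinucleotides. Among all 33469 RefSeq start windows of this length, the median was 51.7% G or C and 7 CpG, 33.1% held a GC box and 21.2% held CGTCA. The Neto2 window exceeded 97.2% of them in CpG count and the Grik2 window 52.4%. These are letters in a window. The arrays measure transcript and not the binding of any factor.

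How the deposited values are scaled decides what can be said of each member. In 84.4% of the rat probe sets (26193) the highest and lowest of the 9 arrays lay within 0.01 log2 units, typically 0.000475 apart (median). In the remaining 4849 they lay 0.424 apart (median). Such narrow spans, called compressed here, give the arrays an order but almost no size. The direction of a diet difference on them could turn with the scaling, as given below. Grik2 and both Neto2 probe sets were uncompressed, and the 5 probe sets of Grik1, Grik3, Grik4, Grik5 and Neto1 were compressed. Array medians lay between 7.39 and 7.40 and correlations between arrays between 0.991 and 0.999. The chow 1 array correlated least with the others (mean r = 0.994, against 0.997 for each of the other 8).

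Differences are chow minus powder, tested with limma, and a probe set or gene was called where the p-value adjusted by Benjamini-Hochberg over the whole table was under 0.05. Of the 8 member probe sets 4 were called, 3 of them higher and 1 lower under chow, where 34.6% of all rat probe sets were called. The same 4 had groups that did not overlap, as had 29.9% of all rat probe sets. Among uncompressed probe sets 54.9% were called, 16.1% higher and 38.8% lower, and 50.0% had groups that did not overlap, so calls were common on these arrays. All 3 uncompressed members were called. At the level of 1 probe set per gene (the one of highest mean), 3 of 7 members were called, Neto2 and Grik3 higher and Grik2 lower. The share over all genes was 14.2% higher and 18.8% lower, and over the 2414 uncompressed genes 9.03% higher and 40.2% lower.

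Grik2 encodes the GluK2 subunit, whose channel pore is changed by RNA editing. Under chow its probe set read 7.93, 7.52, 7.62 and 7.71 on arrays 1 to 4, and under powder 7.94, 8.02, 7.98, 8.03 and 8.01 on arrays 1 to 5. Every chow array was below every powder array, but chow 1 lay only 0.00615 log2 units under powder 1, while the other 3 chow arrays were well clear of the powder range. The chow mean was 7.69 ± 0.176 and the powder mean 7.99 ± 0.0369 (SD, n = 4 and 5), so the chow arrays were more spread out. The difference was -0.30 ± 0.077 (SE), with a 95% interval of -0.48 to -0.12, or 0.812-fold (0.717 to 0.921). Its limma adjusted p was 0.0241, and an exact two-sided permutation test over the arrays gave p = 0.00794, the smallest that 4 against 5 arrays allow. In size it exceeded the differences of 82.3% of the uncompressed probe sets.

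The Grik2 difference kept its sign without any 1 array, between -0.38 (without chow 1) and -0.24 (without chow 2). Its limma adjusted p over probe sets exceeded 0.05 only without chow 3, at 0.0546. Over genes the limma adjusted p was 0.0246, and the call was lost without any 1 of 4 arrays, chow 3 (0.0552), chow 4 (0.0505), powder 2 (0.0521) and powder 5 (0.051). In bulk tissue, fewer cells that express a gene and less RNA per cell cannot be told apart, here and for the genes below.

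Neto2 encodes an auxiliary subunit that also binds the neuronal potassium-chloride cotransporter KCC2. On probe set 1384904_at the chow arrays read 8.10, 8.21, 8.10 and 7.97, and the powder arrays 7.65, 7.72, 7.83, 7.84 and 7.80. The lowest chow array, chow 4, was 0.135 log2 units above the highest powder array, powder 4. The means were 8.09 ± 0.0962 and 7.77 ± 0.0813 (SD, n = 4 and 5). The difference was 0.33 ± 0.057 (SE; 95% interval 0.19 to 0.46), or 1.26-fold (1.14 to 1.38), with adjusted p = 0.00741 and an exact permutation p of 0.00794. It exceeded the differences of 87.4% of the uncompressed probe sets, and it stayed called without any 1 array, at 0.289 to 0.368.

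The other Neto2 probe set, 1393729_at, has the higher mean and stands for the gene. Its chow arrays read 8.31, 8.26, 8.30 and 8.22, and its powder arrays 8.12, 8.10, 8.15, 8.22 and 8.12. The groups came within 0.00228 log2 units of each other, between chow 4 and powder 4, and did not overlap. The means were 8.27 ± 0.0379 and 8.14 ± 0.048 (SD, n = 4 and 5), a difference of 0.13 ± 0.029 (SE; 95% interval 0.066 to 0.20), or 1.10-fold (1.05 to 1.15). The adjusted p was 0.0140 over probe sets and 0.0143 over genes, and an exact permutation test gave p = 0.0159. This difference was smaller than most of its kind, exceeding those of 32.6% of the uncompressed probe sets. It stayed called without any 1 array, at 0.122 to 0.152. The median of both Neto2 probe sets gave 0.23 ± 0.0387 (SE), with adjusted p = 0.00713.

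**Figure D1:**
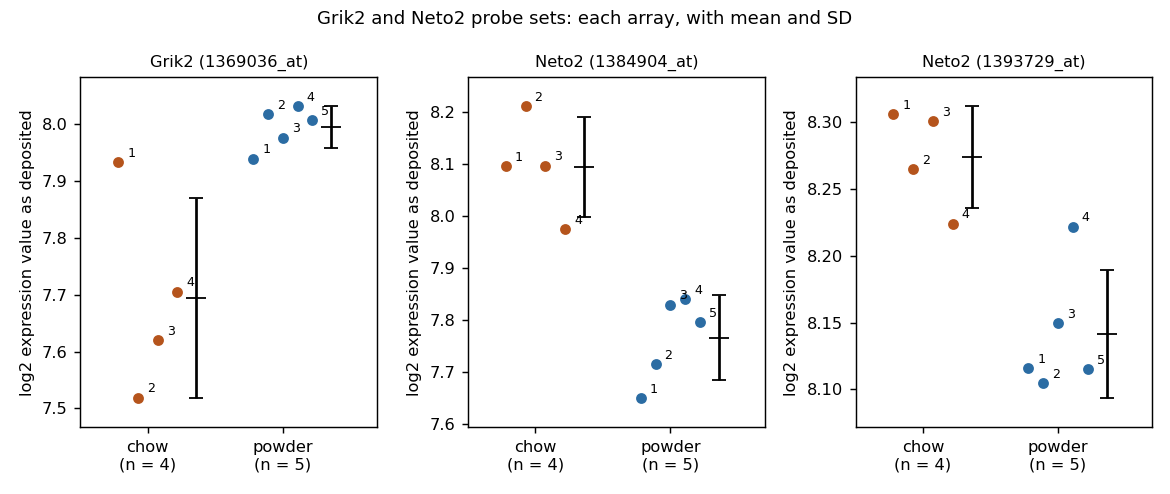
Deposited log2 value (vertical axis) of Grik2 and of the 2 Neto2 probe sets on each chow (n = 4) and powder (n = 5) array, numbered by replicate, with the group mean and SD. Grik2 is lower and both Neto2 probe sets are higher on every chow array than on any powder array, with chow 1 of Grik2 and chow 4 of Neto2 1393729_at close to the powder range.

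Grik2 and Neto2 were set against each other within each array, which removes any shift shared by a whole array, over the 3 pairs of uncompressed member probe sets. Grik2 minus Neto2 1384904_at was -0.40 ± 0.234 on the chow arrays and 0.23 ± 0.066 on the powder arrays (SD, n = 4 and 5), a difference of -0.63 between diets. With Neto2 1393729_at the values were -0.58 ± 0.168 and -0.15 ± 0.0463, a difference of -0.43. The diet difference of the 2 Neto2 probe sets was itself unequal in size, by 0.20. Since the diets did not overlap in opposite directions for Grik2 and Neto2, full separation of the first 2 differences follows from the values above, and no test is read from them. For the 2 Neto2 probe sets an exact two-sided permutation test gave p = 0.00794, the smallest possible. Adjustment over the 3 pairs left it unchanged, as it must when each pair is at that smallest p. Without any 1 array the differences ranged from -0.71 to -0.53, from -0.50 to -0.38 and from 0.15 to 0.22. Within the diets the probe sets moved together only in part. Over the 9 arrays, deviations from the group means correlated at 0.573 between the 2 Neto2 probe sets, at -0.196 between Grik2 and 1384904_at and at 0.266 between Grik2 and 1393729_at, which describes arrays that share their RNA.

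Among the other pore-forming subunits, only Grik3 passed the test. Grik3 encodes GluK3, a subunit of low glutamate sensitivity. Its mean level was 7.13, and its values are given as deviations from the 9-array mean in ten-thousandths of a log2 unit. The chow arrays lay at 1.60, 2.09, 1.95 and 1.66, and the powder arrays at -1.20, -0.855, -3.43, -1.12 and -0.712. All chow arrays were above all powder arrays, and powder 3 was the lowest. The difference was 3.29 ± 0.57 ten-thousandths (SE), or 1.0002-fold, with adjusted p = 0.00726 and an exact permutation p of 0.00794. It remained called without any 1 array, and its sign was positive under every setting tried. After quantile normalization the adjusted p was 0.0505 over probe sets and 0.0455 over genes, on either side of the threshold.

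Grik1 encodes GluK1, and its compressed probe set had a mean level of 7.46. Its deviations ran from -2.91 to 1.49 ten-thousandths under chow and from -2.10 to 3.43 under powder, and the groups overlapped. The difference was -1.54 ± 1.38 ten-thousandths (adjusted p = 0.397), over a total span of 6.34. Subtracting array medians or quantile normalization turned it positive and called, at 0.0064 log2 units in each case.

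The high-affinity subunits were not called. Grik4, which encodes GluK4, had a mean level of 7.76 and deviations of -1.59 to 1.23 ten-thousandths under chow and -2.48 to 1.48 under powder. Its difference was -0.806 ± 0.954 ten-thousandths (adjusted p = 0.521). Grik5, which encodes GluK5, had a mean level of 8.34 and deviations of -3.77 to 1.43 under chow and -0.883 to 2.82 under powder, a difference of -1.98 ± 1.24 ten-thousandths (adjusted p = 0.236). Both turned positive and were called after quantile normalization, at 0.0115 and 0.0187 log2 units, and after subtracting array medians, at 0.0065 and 0.0064. For these subunits the direction therefore depended on the scaling.

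Neto1, the partner that also associates with NMDA receptors, had a mean level of 6.61. Its chow arrays lay at 4.95, -2.47, -0.973 and -0.482 ten-thousandths and its powder arrays between -0.537 and 0.114. The powder arrays fell inside the chow range, which chow 1 and chow 2 set at either end. The difference was 0.463 ± 1.39 ten-thousandths (adjusted p = 0.809, exact permutation p = 0.944). Its sign turned without chow 1, and with array medians subtracted it was called, at 0.0066 log2 units.

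**Figure D2:**
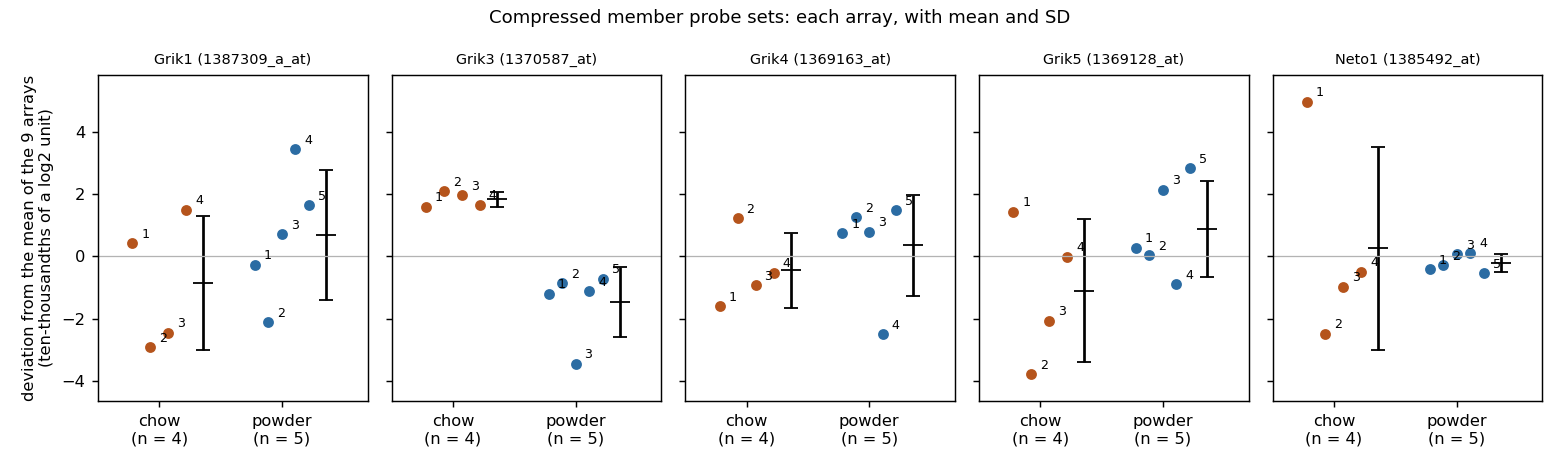
Deviation of each array from the 9-array mean (ten-thousandths of a log2 unit) for the 5 compressed member probe sets under chow (n = 4) and powder (n = 5), with the group mean and SD. Grik3 separates the diets, with group means 3.29 apart on this scale, and the groups of the other 4 overlap.

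The uncompressed members were followed through the other settings. Grik2 stayed lower and both Neto2 probe sets stayed higher under chow in each setting run. With the difference between the 5′ and 3′ beta-actin control probe sets added as a covariate, none of the 8 member probe sets was called (1429 of 31042 were). That difference, a measure of RNA length and labelling, was -1.52 ± 0.0611 under chow and -1.65 ± 0.0602 under powder (SD over 4 and 5 arrays; exact permutation p = 0.0238), so it moved with the diet. For the GAPDH control it was -0.49 ± 0.106 and -0.58 ± 0.0633 (exact permutation p = 0.143). With the covariate Grik2 was at -0.32 ± 0.129 (adjusted p = 0.163), Neto2 1384904_at at 0.29 ± 0.0939 (adjusted p = 0.111) and Neto2 1393729_at at 0.061 ± 0.0303 (adjusted p = 0.239). The standard errors were larger than without the covariate for each of the 3. For Neto2 1393729_at the SE changed little, from 0.0286 to 0.0303, while the difference itself shrank from 0.13 to 0.061. The part of RNA quality in the results was not tested otherwise.

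**Figure D3:**
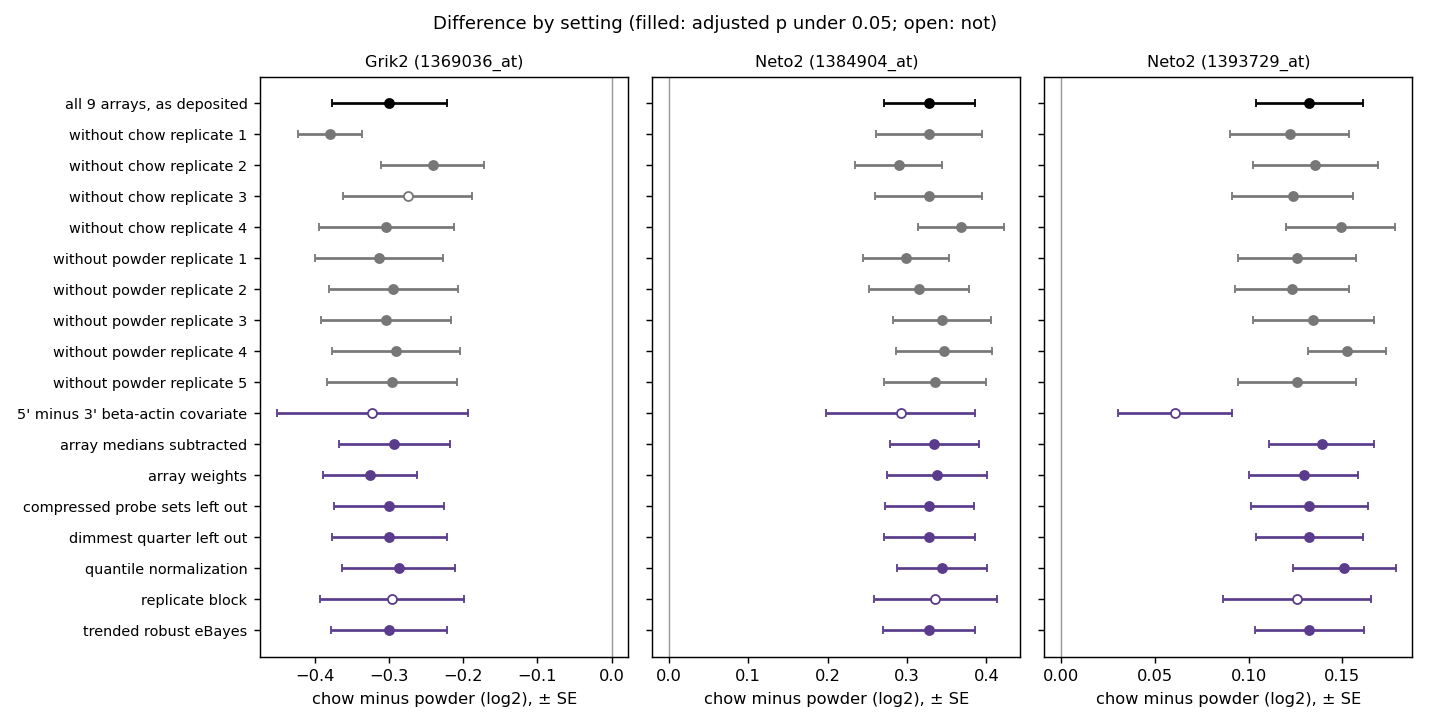
Chow minus powder difference in log2 units (horizontal axis, with SE) of Grik2 and the 2 Neto2 probe sets under each setting, filled where the probe set was called. Signs hold in each setting shown, and no point is filled under the beta-actin covariate or the replicate block.

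Of 24 listed genes that bind or regulate kainate receptors 20 were measured, and 0 rose and 6 fell, beside 14.2% and 18.8% of all genes. Uncompressed were 8, of which 0 rose and 4 fell, beside 9.03% and 40.2% of all uncompressed genes, so the share that fell was near the background. Their median difference was -0.070, against -0.12 over all 2414 uncompressed genes. Over all 20 the median was -8.53e-05, against -7.19e-06 over all genes. After quantile normalization 11 rose and 3 fell, with array medians subtracted 14 rose and 4 fell, and among the 8 uncompressed 2 rose and 3 or 4 fell, so the balance of the whole list turned with the scaling. Without chow 1, 0 rose and 5 fell. With the beta-actin covariate 0 rose and 2 fell.

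The 4 uncompressed interactors that fell were scaffold, adhesion and release proteins. Cdh2 encodes N-cadherin, which with catenins recruits GluK2 to junctions, and it differed by -0.35 ± 0.052 (adjusted p = 0.0045), from 10.0 ± 0.0861 under powder to 9.67 ± 0.0694 under chow. Dlg3 encodes the scaffold SAP102 and differed by -0.34 ± 0.0303 (adjusted p = 0.00177), but another of its probe sets, 1395925_s_at, was higher under chow by 0.24 ± 0.0573 (adjusted p = 0.0195). Ctnnb1, beta-catenin, differed by -0.046 ± 0.0144 (adjusted p = 0.0433), and its second uncompressed probe set by 0.15 ± 0.0467 the other way (adjusted p = 0.0464). Snap25, a SNARE protein that also binds GluK5, differed by -0.022 ± 0.0065 (adjusted p = 0.0374). For Dlg3 and Ctnnb1 the direction depended on the probe set. Dlg4 was counted by a compressed probe set and was not called, but its uncompressed probe set 1395468_at was at -0.18 ± 0.0488 (adjusted p = 0.0302). For Dlg1, a probe set that does not stand for the gene, 1368944_at, went the other way, at 0.20 ± 0.0661 (adjusted p = 0.0548). Dlg4 and Dlg1 were picked with their values in view. The compressed genes that fell were Pick1 and Klhl17. C1ql3, a secreted ligand of kainate receptors, was at 0.22 ± 0.0701 and missed the threshold over genes (adjusted p = 0.0509), and the editing enzyme gene Adarb1 was at -0.22 ± 0.0813 (adjusted p = 0.0761), with another uncompressed probe set at 0.23 ± 0.13 (adjusted p = 0.198). These last 4 were picked with their values in view.

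The other ionotropic glutamate receptor subunits were set beside the kainate subunits. Of 13 listed AMPA, NMDA and delta subunit genes 12 were measured, and 3 rose and 1 fell, beside 14.2% and 18.8% of all genes. The 1 that fell was Gria3, by a compressed probe set. Its uncompressed probe set 1368691_at was higher under chow by 0.24 ± 0.0416 (adjusted p = 0.0074). Of the 6 uncompressed, 2 rose and 0 fell, beside 9.03% and 40.2% of all uncompressed genes, with a median of 0.077. The risen pair were NMDA subunits, Grin3a at 0.27 ± 0.059 (adjusted p = 0.0141) and Grin2a at 0.23 ± 0.071 (adjusted p = 0.0433), whose second uncompressed probe set was at 0.25 ± 0.0722 (adjusted p = 0.0352). Other NMDA probe sets lay below 0, and they were picked with their values in view. Grin1, which encodes the obligatory NMDA subunit, was at -0.14 ± 0.0512 (adjusted p = 0.0669) by the probe set that stands for it and at -0.41 ± 0.0611 by 1389900_at (adjusted p = 0.00482), the largest difference of any uncompressed probe set in this list. Grin2c was at -0.23 ± 0.0946 (adjusted p = 0.101). The NMDA subunits thus had no common direction. After quantile normalization 8 of the 12 rose and 0 fell, with array medians subtracted 9 rose and 1 fell, without chow 1, 3 rose and 0 fell, and with the beta-actin covariate 0 were called.

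AMPA receptors have their own auxiliary subunits, which play the part that Neto proteins play at kainate receptors. Of 12 listed 10 were measured, and 2 rose and 1 fell, beside 14.2% and 18.8% of all genes. Of the 4 uncompressed, 1 rose and 1 fell, beside 9.03% and 40.2% of all uncompressed genes. Cacng4, the transmembrane AMPA receptor regulatory protein gamma-4, was at 0.39 ± 0.056 (adjusted p = 0.0043), and Cacng2, stargazin, at -0.25 ± 0.073 (adjusted p = 0.0378). After quantile normalization 5 rose and 1 fell, with array medians subtracted 8 rose and 1 fell, without chow 1, 2 rose and 1 fell, and with the beta-actin covariate 0 were called.

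**Figure D4:**
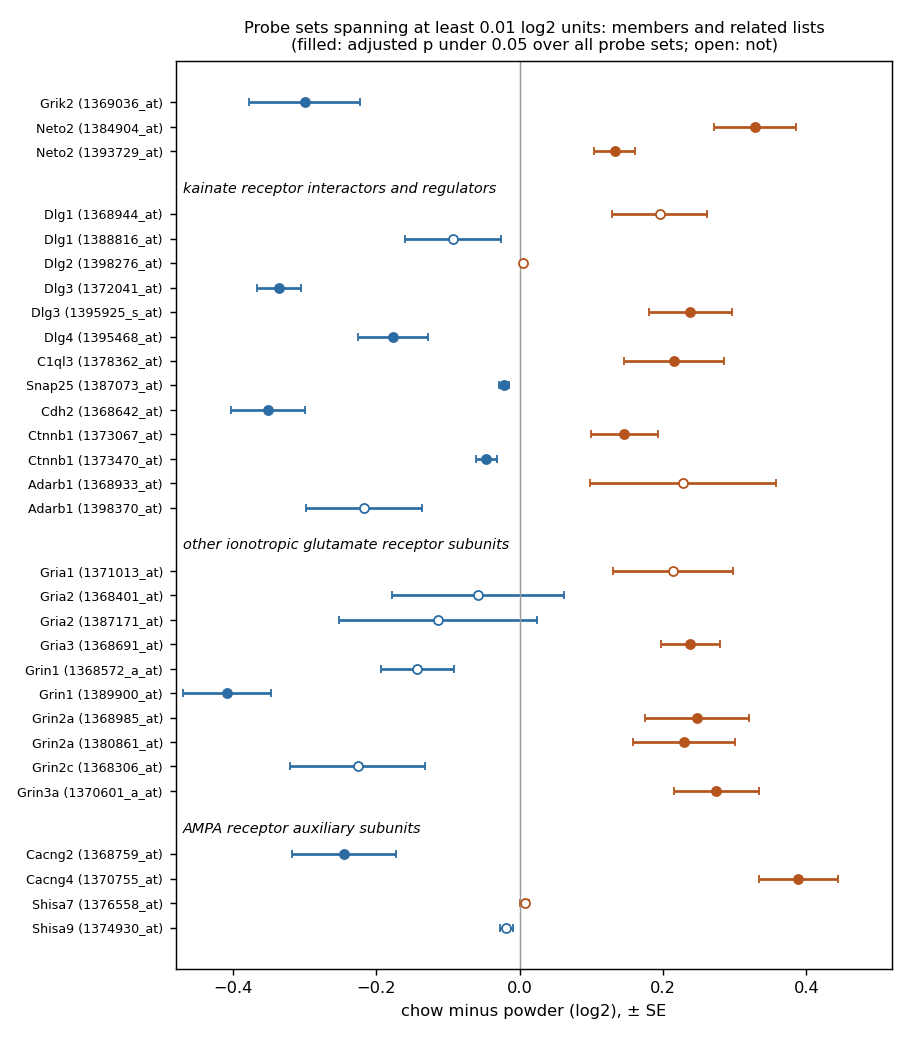
Chow minus powder difference in log2 units (with SE) of each uncompressed probe set of the 3 related gene lists beside the members, filled where called over all probe sets. The interactors Cdh2 and Dlg3 (1372041_at) lie furthest below 0 in their list, at -0.35 and -0.34, and Cacng4 lies furthest above 0 among the AMPA auxiliary subunits, at 0.39.

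Genes whose deviations from the group means were most like a member's, over the 9 arrays, were picked from 2412 uncompressed genes. For Grik2 they were Neu2 (r = 0.984), Nsg2 (0.982) and Dgkb (0.964). Their own diet differences were 0.22, -0.056 and -0.016, and none was called (adjusted p = 0.214, 0.256 and 0.938), so they shared the scatter of Grik2 and not its difference. For Neto2 1384904_at they were Tbce (0.954), Ttc17 (0.946) and Ggnbp2 (0.942), with differences of -0.26, -0.24 and 0.023. Tbce and Ttc17 were called (adjusted p = 0.00775 and 0.00177), in the direction opposite to Neto2. For Neto2 1393729_at they were Gabra3 (0.937), Ppp1r11 (0.932) and Tnfrsf21 (0.926), at 0.23, 0.11 and 0.16 and each called (adjusted p = 0.0338, 0.0377 and 0.0447). With 9 arrays and this many candidates, correlations of this size are a description only.

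The labelled tissue was checked against its markers. Slc17a6, the vesicular glutamate transporter of relay neurons, was at 11.5 ± 0.257 under chow and 11.7 ± 0.0213 under powder, and Tcf7l2, a thalamic transcription factor, at 11.8 ± 0.222 and 12.1 ± 0.0659 (SD over 4 and 5 arrays). Levels of the marker lists are given as the mean of the uncompressed markers minus its mean over the 9 arrays. For relay neurons chow 1 lay at -0.476, the other chow arrays between -0.108 and 0.116 and the powder arrays between 0.051 and 0.136. All 7 uncompressed relay markers were below 0 in the diet difference (median -0.194), and 0 of 8 measured were called. For striatum, a neighbouring region, chow 1 lay at 1.00, and the other 8 arrays between -0.261 and 0.035, with 1 of 6 measured markers called higher (Tac1). For GABA neurons chow 1 lay at 0.417, the other chow arrays between -0.094 and 0.151 and the powder arrays between -0.274 and 0.144, with 1 of 8 called higher (Gabra3). In the diet difference 6 of the 8 GABA markers were above 0 and 2 below (median 0.205). All 5 uncompressed striatal markers were above 0 (median 0.402).

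The array with the least relay and most striatal marker signal was thus chow 1. It was the chow array on which Grik2 came nearest to the powder arrays, while for Neto2 it lay inside the range of the other chow arrays on 1384904_at and, at 8.31 against 8.30 for the next, at its top on 1393729_at. Without chow 1, Grik2 was at -0.38 (adjusted p = 0.0064), and both Neto2 probe sets were still called. In the remaining marker lists, 1 of 6 measured genes was called for cortex and hippocampus, 1 of 4 for habenula (again Tac1), 1 of 6 for astrocytes, 1 of 6 for microglia and 1 of 4 for choroid plexus, all higher under chow, beside 14.2% of all genes. Apart from Tac1 these were compressed probe sets. Each marker gene was counted by the probe set of highest mean. For astrocytes, another uncompressed probe set of Aqp4 was called higher, at 0.53 ± 0.0865 (adjusted p = 0.00601). The one that stands for Aqp4 was at -0.14 ± 0.0458 (adjusted p = 0.0567). Another uncompressed probe set of Slc1a3 was also called higher, at 0.53 ± 0.13 (adjusted p = 0.0211). The one that stands for Slc1a3 was at 0.021 ± 0.0936. Aqp4 and Slc1a3 were picked with their values in view. For oligodendrocytes 1 of 5 was lower, for endothelium 2 of 4 were lower (1 of them compressed), beside 18.8% of all genes, and for oligodendrocyte precursors 0 of 4 were called. Without detection calls no marker can be called absent here. The part of cell composition in the Grik2 and Neto2 differences was not tested.

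**Figure D5:**
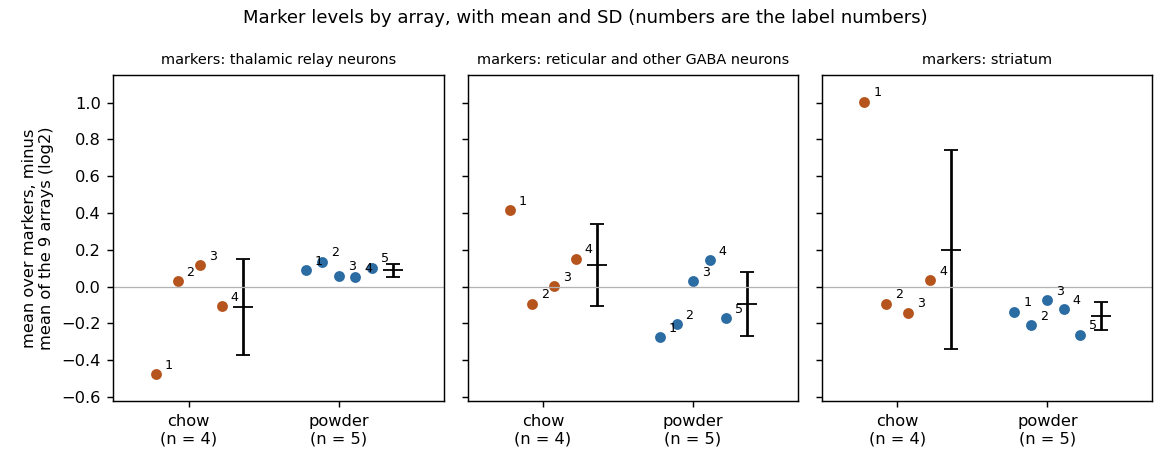
Mean level of the uncompressed markers of relay neurons, GABA neurons and striatum on each array (log2 units, as deviation from the 9-array mean), under chow (n = 4) and powder (n = 5). Chow 1 stands at -0.476, 0.417 and 1.00, and for striatum the other 8 arrays lie between -0.261 and 0.035.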

How the data were processed

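The deposited table holds 1 log2 value per probe set and array, a scale read from its range of 5.37 to 14.0. Which software, summarisation and normalization the authors used is not given in the sources used here. Total RNA was extracted with TRIzol, purified with RNeasy, and 100 ng was made into biotin-labelled cRNA, per the labels' protocols. The values were used as deposited. Scanner files and detection calls were not used here, so no background level was set, and the number of arrays limits the precision.

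The platform annotation named the probe sets; 20826 had 1 symbol, 436 several and 9780 none listed. All 7 member symbols are in the RefSeq table of assembly GRCr8. After 57 control probe sets were left out, chow was compared with powder using limma 3.58.1 in R 4.3.3 (lmFit, eBayes, no covariate), with Benjamini-Hochberg adjustment over all rat probe sets or all genes and a threshold of 0.05. Exact permutation tests used all 126 arrangements of 4 and 5 arrays. Named genes were all members, up to 4 called uncompressed genes per related list and direction by smallest p, and the 3 genes most like each called uncompressed member probe set. The members, lists, markers and alternatives were chosen with earlier results of these data known, and the beta-actin covariate was added after seeing these values. The fit was also tested on data simulated from the means and within-group spreads of these values.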

Additional observations from a re-analysis of the deposited data

Results flagged for a closer look

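In groups of 4 or 5 arrays, the lowest or highest array was set against its nearest neighbour, as a share of the group's range. Among the members, powder 3 of Grik3 (share 0.822) and powder 4 of Grik4 (0.813) lay apart at the low end, above the limit of 0.71 for 5 arrays, both on compressed probe sets. Among the related genes, chow 1 of Snap25 (0.915) and chow 1 of Cacng2 (0.936) lay apart at the low end, above the limit of 0.829 for 4 arrays. Without powder 3, Grik3 was still called. Of 32 groups examined 4 stood out, and chance alone gives about 1 in 20.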

How the results depend on the processing

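Grik2 kept its negative sign and both Neto2 probe sets their positive sign in each alternative run. The counts depended on the scaling. Of 31042 rat probe sets 10753 were called (5558 higher, 5195 lower), against 17464 (15610 and 1854) after quantile normalization, 29347 (27206 and 2141) with array medians subtracted, 2884 with compressed probe sets left out of the test, 1429 with the beta-actin covariate and 19 with the replicate block. Called member probe sets numbered 4 in the main setting, 8 with array medians subtracted, and 0 with the covariate or the block; among the 3 uncompressed, 0 with either. Called member genes numbered 3, against 6 after quantile normalization, 7 with medians subtracted and 0 with the covariate or the block.

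Not called were Grik2 at -0.32 with the covariate and -0.30 with the block (adjusted p = 0.134), Neto2 1384904_at at 0.29 and 0.335 (block adjusted p = 0.0903), and Neto2 1393729_at at 0.061 and 0.126 (block adjusted p = 0.127). Grik3 was at 0.00036 with the covariate, 0.000348 with the block and 0.0038 after quantile normalization, none of them called over probe sets. Without 1 array each, Grik2 ranged from -0.38 to -0.24, and Neto1 from -0.00011 to 0.000137.

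Signs turned only on compressed probe sets: Grik1 to 0.0064 with medians subtracted and 0.0064 after quantile normalization, Grik4 to 0.000164 with the covariate, 0.0065 and 0.0115, Grik5 to 0.0064 and 0.0187, and Neto1 to -1.64e-05 with array weights. Neto1 was called, at 0.0066, with medians subtracted. Subtracting array medians adds the same amount to the difference of every probe set. With it the median difference over all 31042 rat probe sets went from 5.00e-05 to 0.0066. The cause of the turns under the other settings was not tested. Leaving out the dimmest probe sets (the lowest 0.25 by mean) removed Neto1. At an adjusted p under 0.1, 14737 probe sets and the same number of members (4) were called.

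Arrays of the same replicate number in the groups were not the most alike in their deviations. With 4 such pairs, this cannot settle whether arrays were paired by number. Deviations of same-numbered arrays correlated at -0.306, 0.186, -0.344 and -0.164, and 0 of 4 correlated best with their own number. The block leaves 3 residual degrees of freedom, and 11127 probe sets had an unadjusted limma p under 0.05 with it. Only powder had a replicate 5, so powder 5 did not enter the diet difference under the block. For Grik2 that difference was -0.297, as it was without powder 5.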
